A study of Macaca mulatta with 6 samples.

Results

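The miRNAs described here are miR-10, miR-196 and miR-615, whose genes lie inside the Hox clusters, as measured in the plasma of rhesus monkeys (Macaca mulatta) after and before cerebral ischemia. They were chosen by name alone: every entry of the deposited table whose name, without its species prefix, arm, copy number and isomiR suffix, is miR-10, miR-196 or miR-615 with or without a closing letter. The rule found 9 of the 2046 entries, of which 4 were miR-10, 4 were miR-196 and 1 was miR-615, and all 9 carried a rhesus name (mml-). An entry is a name with its mature sequence, and in the names L (5′ end) and R (3′ end) say by how many bases an isomiR is longer or shorter than its miRBase sequence.

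The group after ischemia comprised 3 plasma libraries taken 3 h after a clot had been flushed through a catheter into the right middle cerebral artery (MCAO). The group before ischemia comprised 3 baseline plasma libraries, and libraries with the same replicate number were taken as samples of 1 monkey. All animals were adult males under ketamine and propofol, and the study kept only monkeys whose artery was still occluded, without a sham-operated group, so ischemia, surgery, anesthesia and time cannot be told apart. Total counts, recovered from the normalized values, were 6036831 to 9737589 in the libraries after ischemia and 10745499 to 15548693 in those before, so that a rare miRNA had a lower chance of being counted after ischemia. The blood cell miRNAs miR-486, miR-451 and miR-223 were above 0 in all 6 libraries, as were the other fixed marker miRNAs with the exception of miR-124 of neurons.

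miRNAs are short RNAs that, loaded into Argonaute, pair mainly through their seed (bases 2 to 8) with messenger RNAs and lower their output. Hox genes set position along the body axis, and the miRNAs embedded between them are expressed in similarly restricted domains and repress Hox messages in turn; in the mouse embryo, for example, miR-196 directs cleavage of the Hoxb8 message. miR-10a is known from endothelium and gut, miR-10b from cancer invasion, miR-196b from mouse blood progenitor cells and human leukemia, and miR-196a from posterior tissues. In the rhesus assembly T2T-MMU8v2.0, which served for neighbours only, MIR10A lay within the annotated span of HOXB3 next to HOXB4, and MIR10B within that of HOXD4. MIR196B lay between HOXA10 and HOXA9, MIR196A-2 between HOXC10 and HOXC9, and MIR196A-1 next to HOXB9. MIR615 lay within HOXC5.

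The mature sequences carry the family structure, and the 5p arms are shown first because they hold most of the counts and differ within each family by a single base. Capitals mark the seed, and sequences are written as DNA, as in the table.
mml-miR-10a-5p_R-1: tACCCTGTagatccgaatttgt
mml-miR-10b-5p_R-1: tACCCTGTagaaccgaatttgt
mml-miR-196a-5p: tAGGTAGTttcatgttgttgg
mml-miR-196b-5p_R-1: tAGGTAGTttcctgttgttgg
Counted from 1 at the 5′ end, miR-10b-5p differs from miR-10a-5p by T12A alone, and miR-196b-5p differs from miR-196a-5p by A12C alone. Both differences lie outside the seed. The seed ACCCTGT occurred in 2 entries of the table, which are these miR-10 arms. The seed AGGTAGT occurred in 3 entries, namely the miR-196 5p arms and a predicted candidate, PC-3p-92902_6, listed at 11.2 normalized counts in 1 library and at 0 in the others.

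The 3p arms, the opposite strands of the same precursors, are shown because miR-196b-3p and the miR-10 arm ratios enter the comparison.
mml-miR-10a-3p_L+1R-1: cAAATTCGtatctaggggaat
mml-miR-10b-3p_L+1R-1: cAGATTCGattctaggggaat
mml-miR-196b-3p_L+1: tCGACAGCacgacactgccttca
mml-miR-615-3p_R-1: tCCGAGCCtgggtctccctct
The 3p arms of miR-10a and miR-10b differ by A3G, T9A and A10T, of which A3G falls in the seed. By their names, the miR-10a, miR-10b and miR-196b 3p arms start 1 base earlier than the miRBase sequence, which shifts their seed by 1 base. No member shared its full sequence with another entry.

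miR-10 made up most of the counts of the Hox-embedded miRNAs, and its level did not differ between the groups beyond the spread of the libraries. mml-miR-10a-5p_R-1 had 23407, 16114 and 11389 normalized counts in replicates 1, 2 and 3 after ischemia, against 18791, 9439.5 and 14861 before ischemia. A normalized count is the authors' read count multiplied by 1 factor per library. The groups overlapped, and the value was higher after ischemia in 2 of 3 monkeys. The log2 fold change was 0.23 (standard error 0.379), with an adjusted p of 0.777. This and every other adjusted p comes from limma on log2(normalized count + 1), with Benjamini-Hochberg adjustment over 807 tested entries, those at 10 or more normalized counts in 3 or more libraries. The added 1 pulls the fold changes of rare miRNAs towards 0. Where a group is listed at 0, however, it sets the size of the fold change, which can then be overstated.

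mml-miR-10b-5p_R-1 had 32091, 8603 and 9921 normalized counts after ischemia, against 17453, 4681 and 19120 before ischemia. Replicate 1 after ischemia stood highest and replicate 2 before ischemia lowest, and the groups overlapped. The log2 fold change was 0.27, with a standard error of 0.659 and an adjusted p of 0.873 from limma. Scaled by library totals, which moved the median of all tested entries to −0.43 from −0.06, the fold changes of miR-10a-5p and miR-10b-5p turned to −0.15 and −0.12. The same reversal came from leaving out replicate 1 after ischemia (−0.03 and −0.33) or replicate 2 before ischemia (−0.04 and −0.38).

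The 3p arms of miR-10 were far below their 5p arms, and they too did not pass the test. mml-miR-10a-3p_L+1R-1 had 443, 264 and 223 normalized counts after ischemia, against 257, 131 and 289.5 before ischemia. It differed by 0.47 on the log2 scale (adjusted p = 0.612 from limma, standard error 0.477). mml-miR-10b-3p_L+1R-1 had 494, 177 and 186 normalized counts after ischemia, against 208, 30.9 and 226 before ischemia, a difference of 1.15 on the log2 scale (adjusted p = 0.435 from limma, standard error 0.809). Without before replicate 2 the differences of the miR-10a and miR-10b 3p arms were 0.12 and 0.22, without after replicate 1 they were 0.18 and 0.67, and by library totals 0.08 and 0.76. Both arms of both miRNAs were higher after ischemia in monkeys 1 and 2 and lower in monkey 3, with overlapping groups in each case.

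**Figure D1:**
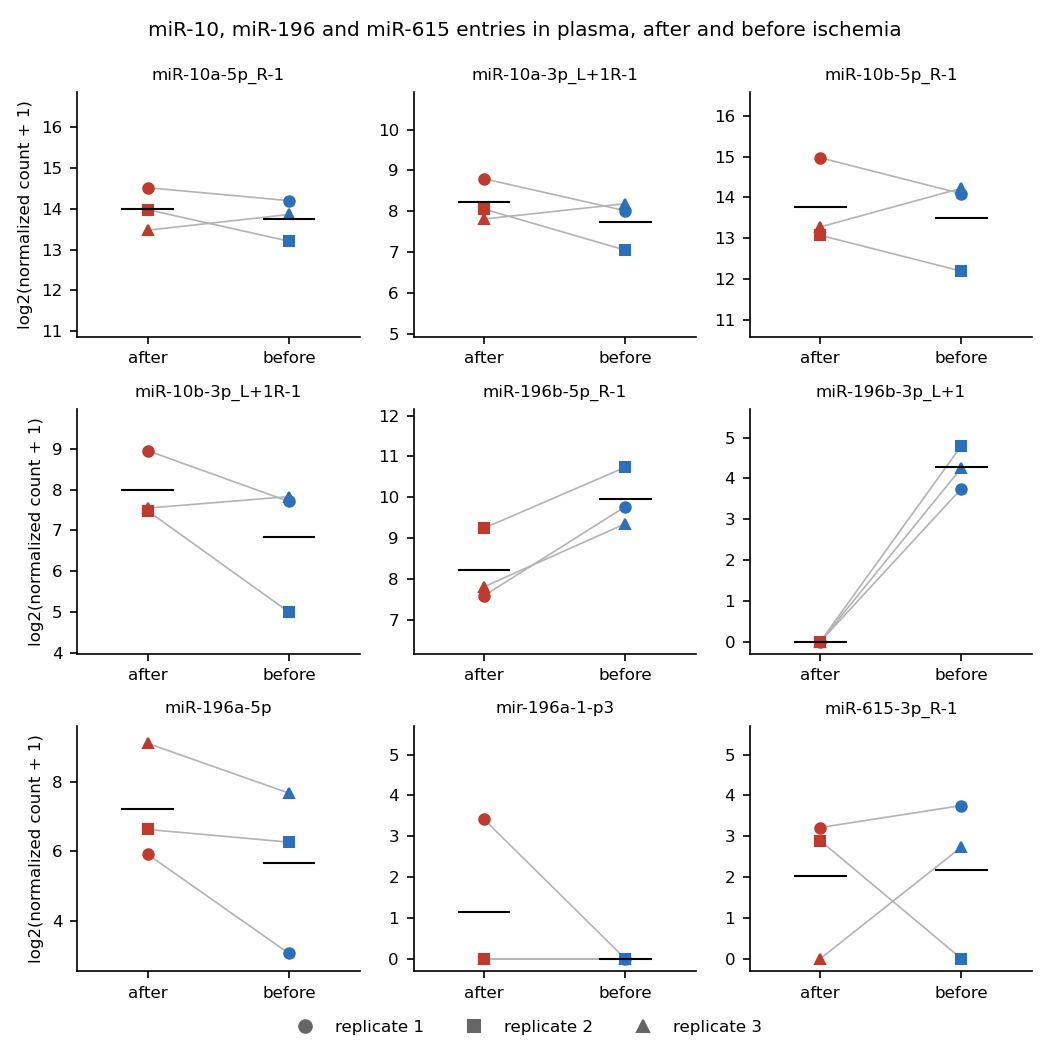
Level of each of the 9 entries as log2(normalized count + 1), after ischemia (red, left) and before ischemia (blue, right); grey lines join libraries of the same replicate number and black bars are group means, n = 3 each. The miR-10 panels overlap between the groups, while miR-196b-5p lies lower after ischemia in 3 of 3 monkeys. So does miR-196b-3p, which passed the filter only through the libraries before ischemia and had to differ.

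As a share of all normalized counts, miR-10 took 0.420%, 0.223% and 0.193% after ischemia and 0.439%, 0.139% and 0.392% before ischemia. The mean share was 0.279 ± 0.123% after and 0.323 ± 0.161% before ischemia (n = 3 each, SD). They differed by −0.0443 percentage points (p = 0.9 in an exact permutation test, two-sided like all tests here, which with 3 libraries a group cannot go below 0.1). The sum of the 4 miR-10 entries had a log2 fold change of 0.26 (exact permutation p = 0.7), which became −0.13 when scaled by library totals, −0.17 without after replicate 1 and −0.18 without before replicate 2. In plasma, fewer cells releasing a miRNA and less of it released per cell cannot be told apart.

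miR-196b-5p was lower after ischemia in 3 of 3 monkeys, and the groups did not overlap. The same held for the 3p arm, but that arm passed the filter only through the libraries before ischemia, so it had to differ. The 5p arm passed the test once the monkeys were paired. mml-miR-196b-5p_R-1 had 192, 605 and 223 normalized counts after ischemia, against 871, 1703 and 652 before ischemia. These came from 139, 472 and 120 counts after ischemia and from 1118, 2532.5 and 1153 counts before. The highest library after ischemia, replicate 2, stood just under the lowest one before, replicate 3, and replicate 2 was the highest library in both groups.

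The log2 fold change of miR-196b-5p was −1.74 (standard error 0.556, 95% interval −3.01 to −0.47). It did not pass the threshold of 0.05 without a pairing term (adjusted p = 0.118 from limma). It passed with the monkey, that is, the replicate number, as a block (adjusted p = 0.0368 from limma, standard error 0.338). This blocked call held without both libraries of replicate 1 or 2 (adjusted p = 0.0445 and 0.0291 from limma) and not without those of replicate 3 (0.241), a setting in which 2 of 698 entries passed in all. Unblocked, it passed without replicate 2 after ischemia alone (adjusted p = 0.0474). By monkey, the log2 difference after minus before was −2.18, −1.49 and −1.54. The fold change was −2.13 when scaled by library totals (adjusted p = 0.0621).

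mml-miR-196b-3p_L+1, the opposite strand, was listed at 0 in all 3 libraries after ischemia and had 12.5, 26.9 and 18.1 normalized counts before ischemia, from 16, 40 and 32 counts. The mean before ischemia was 19.2 normalized counts. With an assumed limit of detection of 3 counts per library, the mean after ischemia would be at most 4.52, at least 4.24-fold lower. The lowest count above 0 of any member was 5, in miR-615-3p. A listed 0 may therefore hide more than 3 counts, and the fold could then be smaller. Neither 4.52 nor 4.24 is thus a firm bound. The adjusted p was 0.0785 from limma, 0.115 with replicate number as a block, 0.0355 when scaled by library totals, 0.0497 when entries of 1 stem and arm were summed, and 0.00450 without a variance trend. It entered the test only through the libraries before ischemia, so it had to differ. In the whole table, 57 entries (2.79%) were listed at 0 in every library after ischemia and above 0 in every library before, and 6 (0.293%) had the opposite pattern.

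The 3p arm can also be set against the 5p arm of the same precursor, which takes out the scaling of the library. Depth still decides whether so rare an arm is listed above 0. Of the miR-196b counts, the 3p arm made up 0 of 139, 0 of 472 and 0 of 120 after ischemia, and 16 of 1134 (1.41%), 40 of 2572 (1.56%) and 32 of 1185 (2.70%) before ischemia. A count of 0 allows shares of up to 2.16%, 0.636% and 2.50% in the libraries after ischemia, taking 3 counts over the total as the limit. The exact two-sided 95% intervals reach slightly higher, to 2.62%, 0.778% and 3.03%. By either limit, replicate 2 alone lies under every share measured before ischemia. Over the 3 libraries together the share was 0 of 731 after ischemia, which allows up to 0.410% by 3 counts over the total and 0.503% by the exact interval, against 88 of 4891 before ischemia (1.80%, exact 95% interval 1.45 to 2.21%). These limits cover counting error only, since reads are not independent molecules, and pooling ignores the spread between monkeys. They also rest on a listed 0 hiding no more than 3 counts. If the authors listed low counts as 0, higher shares are allowed. Neither the separation in replicate 2 nor the pooled difference in share is therefore established.

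**Figure D2:**
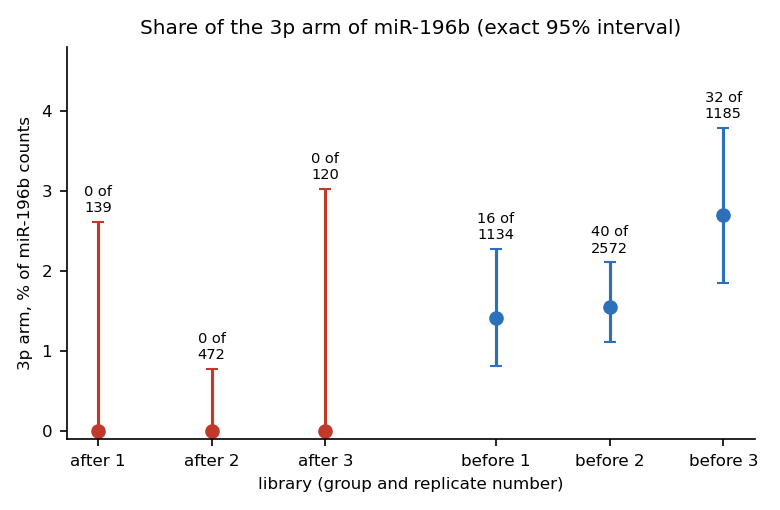
Share of the 3p arm among the counts of miR-196b in each library, in percent, with exact (Clopper-Pearson) 95% intervals and the counts behind each point, after ischemia in red and before ischemia in blue. All 3 libraries after ischemia are listed at 0 counts of the 3p arm, and only in replicate 2 is the upper end below each share before ischemia. The intervals take a listed 0 as a true count, so the separation in replicate 2 is not established.

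For miR-196a, which has the same seed, no difference passed the test over all 6 libraries, and its values lay higher after ischemia. mml-miR-196a-5p had 59.3, 98.1 and 548 normalized counts after ischemia, against 7.40, 76.0 and 203 before ischemia. It was higher after ischemia in 3 of 3 monkeys, by 2.84, 0.36 and 1.43 on the log2 scale, while the groups overlapped widely, with monkey 3 high and monkey 1 low in both. The log2 fold change was 1.54 (standard error 1.22, adjusted p = 0.488 from limma; adjusted p = 0.150 with replicate number as a block). Without replicate 2 the blocked value passed (2.14, adjusted p = 0.0285 from limma). Without replicate 1 before ischemia, the library with 9.5 counts, the unblocked value was 0.25.

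Within a library, miR-196a-5p stood at a log2 ratio of −1.68, −2.61 and 1.29 to miR-196b-5p after ischemia and of −6.70, −4.47 and −1.68 before ischemia. The ratio was higher after ischemia in 3 of 3 monkeys, by 3.28 on average (2.07 without before replicate 1, 2.14 without after replicate 3 and up to 4.58 without before replicate 3), with after replicate 2 under the highest value before (exact permutation p = 0.2, adjusted over 5 ratios 0.333). It does not depend on how libraries are scaled. As a sum, miR-196 took 0.00194%, 0.00624% and 0.00687% of the normalized counts after ischemia, against 0.0106%, 0.0176% and 0.00993% before ischemia, with no overlap (exact permutation p = 0.1, the smallest possible). miR-196b-5p made up 73.5%, 86.1% and 29.0% of that sum after ischemia and 97.8%, 94.3% and 74.7% before.

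The remaining members were at the edge of detection. mml-miR-615-3p_R-1 had 8.27, 6.41 and 0 normalized counts after ischemia (6, 5 and 0 counts), against 12.5, 0 and 5.65 before ischemia (16, 0 and 10 counts), and no fold was taken. mml-mir-196a-1-p3, the 3p side of one of the miR-196a genes, had 9.65 normalized counts (7 counts) in replicate 1 after ischemia and was listed at 0 in the other 5 libraries. Neither passed the filter on low values: miR-615-3p reached 10 normalized counts in 1 library and mir-196a-1-p3 in none, while among the tested members miR-196b-3p reached it in 3, miR-196a-5p in 5 and the others in all 6 libraries.

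In all, 7 of the 9 entries were tested. None passed the adjusted threshold without a pairing term, where 5.45% of all tested entries passed (1.98% higher and 3.47% lower after ischemia). At an unadjusted p under 0.05 in limma, 0 were higher and 2 lower, the arms of miR-196b, of which the 3p arm had to differ to be tested (1 lower without it), against 22.3% of all tested entries (9.79% higher and 12.5% lower). The groups did not overlap for these 2 arms, both lower (1 without the 3p arm, for the same reason), against 26.9% of all tested entries (11.5% higher and 15.4% lower). With replicate number as a block, 1 entry passed, miR-196b-5p, against 5.70% of all tested entries (3.59% lower).

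The nearest relatives of miR-10 outside the Hox clusters are miR-99 and miR-100, which sit in clusters with miR-125 and let-7 and are known from many tissues. They are shown to make the likeness visible.
mml-miR-100-5p_R-1: aACCCGTAgatccgaacttgt
mml-miR-99a-5p_R-1: aACCCGTAgatccgatcttgt
With base 6 left out, miR-10a-5p matched miR-100-5p at 19 and miR-99a-5p at 18 of 21 positions, but the seed differs. The table held 12 entries of miR-99, miR-100 and miR-125, of which 10 were tested. None passed (adjusted p 0.153 to 0.894 from limma). Their fold changes were above 0 in 8 of 10 with a median of 1.04 (0.65 and still 8 of 10 when scaled by library totals). For the 4 miR-10 entries the median was 0.37 with 4 above 0, and −0.02 with 2 above 0 by library totals, and over all 807 entries the median was −0.06.

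mml-miR-99a-5p_R-1, for example, had 28924, 13040.1 and 12862 normalized counts after ischemia, against 10829, 3787 and 12653 before ischemia, and a log2 fold change of 1.07 (adjusted p = 0.270 from limma). mml-miR-99b-5p had 12574, 7463 and 10835 after ischemia, against 7541, 2054 and 4395 before (log2 fold change 1.30, adjusted p = 0.159 from limma). The groups did not overlap for miR-99a-5p, by 12862 against 12653, and overlapped slightly for miR-99b-5p. Of all tested entries, 11.5% were higher after ischemia without overlap. mml-miR-100-5p_R-1 had 4437, 1521 and 2072 after ischemia, against 1938, 1010 and 2258 before (log2 fold change 0.55, adjusted p = 0.533 from limma). Its groups overlapped, and it was lower after ischemia in monkey 3.

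**Figure D3:**
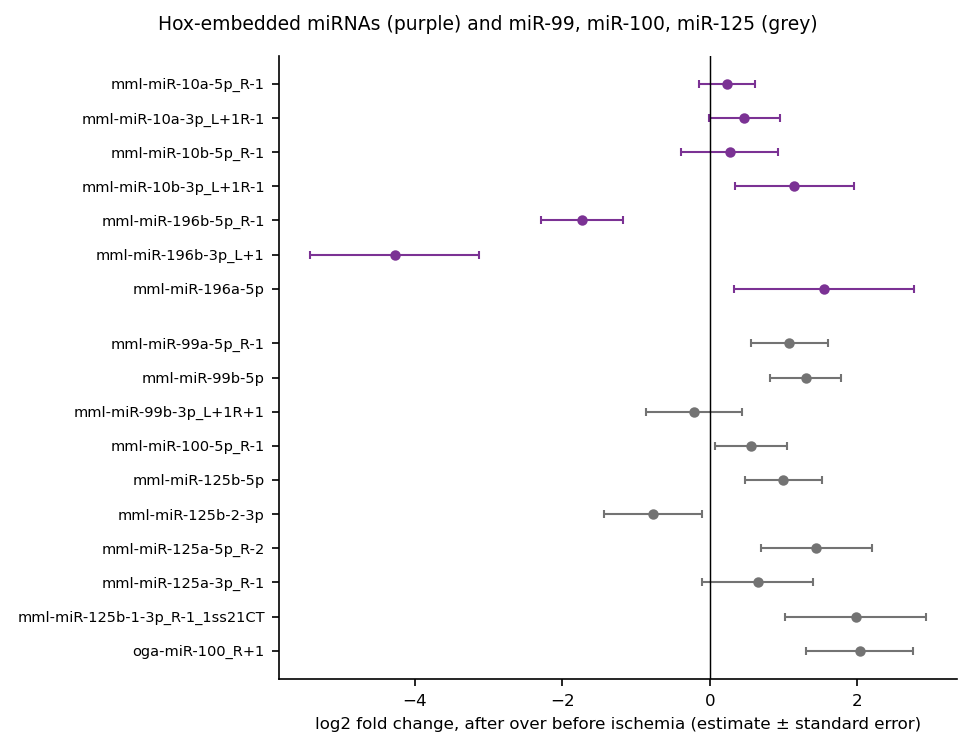
Log2 fold change of log2(normalized count + 1), after over before ischemia, with its standard error from limma, for the 7 tested Hox-embedded entries (purple) and the 10 tested entries of miR-99, miR-100 and miR-125 (grey), n = 3 libraries per group. The miR-196b arms lie furthest below 0; the size of the miR-196b-3p value is set by the pseudocount, since all libraries after ischemia are at 0 (−5.23 with a pseudocount of 0.5 and −1.51 with 10).

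miR-10 can be set against these relatives within a library, which takes out the scaling. The log2 ratio of all miR-10 to all miR-99 and miR-100 entries was 0.29, 0.18 and −0.26 after ischemia, against 0.84, 1.04 and 0.81 before ischemia. The groups did not overlap and the ratio was lower after ischemia in 3 of 3 monkeys, with a mean difference of −0.83 (0.07 ± 0.293 after and 0.90 ± 0.124 before, SD, n = 3 each). The exact permutation p was 0.1, the smallest possible, and 0.250 adjusted over the 5 ratios, so that this design could not pass a threshold of 0.05. The difference lay between −0.94 and −0.66 when each library was left out in turn. With only the most abundant entry of each side it was −0.84, and the groups then overlapped (exact permutation p = 0.2).

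Within the miR-10 family, the proportion of the paralogs overlapped between the groups. miR-10a-5p stood at a log2 ratio of −0.46, 0.91 and 0.20 to miR-10b-5p after ischemia and of 0.11, 1.01 and −0.36 before ischemia. The mean difference was −0.04 (exact permutation p = 0.9), and it turned to 0.30 when after replicate 1 was left out and to 0.34 when before replicate 2 was. In monkey 2, miR-10a-5p exceeded miR-10b-5p at both times, with 64.1% and 34.2% of all miR-10 after ischemia and 66.1% and 32.8% before.

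The 5p arm of miR-10a exceeded its 3p arm by 5.72, 5.93 and 5.67 on the log2 scale after ischemia, against 6.19, 6.16 and 5.68 before ischemia (difference −0.24, exact permutation p = 0.3). For miR-10b the excess was 6.02, 5.60 and 5.73 after ischemia, against 6.38, 7.20 and 6.40 before ischemia. It was lower after ischemia in 3 of 3 monkeys with no overlap, with a mean difference of −0.88 (exact permutation p = 0.1, the smallest possible, and 0.250 adjusted over the 5 ratios), and of −1.01 to −0.61 with each library left out in turn. Replicate 2 before ischemia, with 46 counts of the miR-10b 3p arm, gave the highest value.

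**Figure D4:**
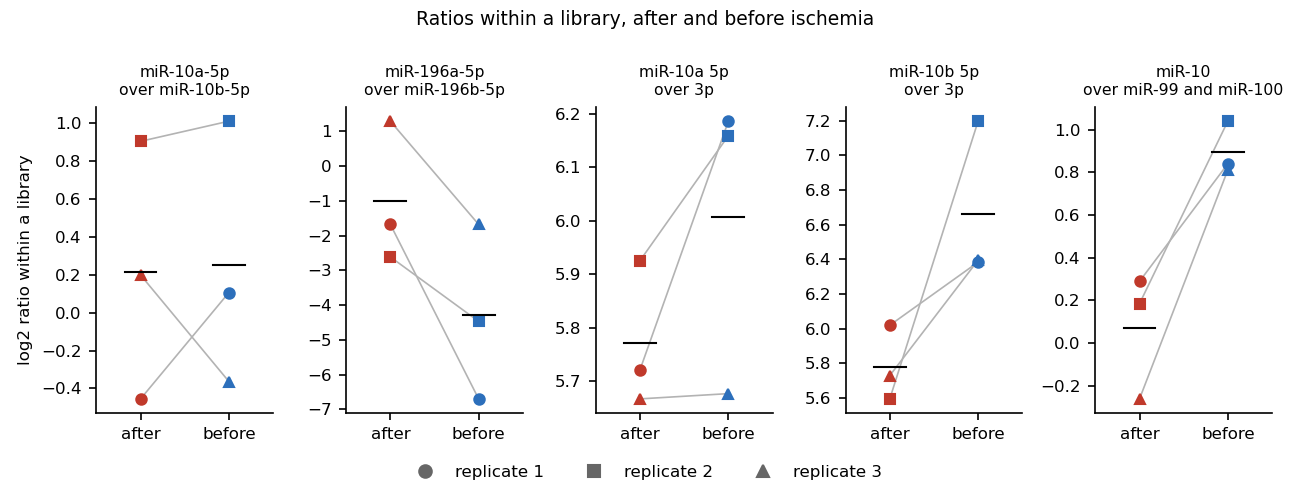
The 5 log2 ratios within a library, after ischemia (red, left) and before ischemia (blue, right), with the same replicate numbers joined by grey lines and group means as black bars, n = 3 each; each panel has its own scale. The ratio of miR-10b arms and the ratio of miR-10 to miR-99 and miR-100 do not overlap between the groups, while the miR-10a to miR-10b ratio does.

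The members differed in which libraries were high. In all 4 miR-10 entries, replicate 1 was the highest library after ischemia and replicate 2 the lowest before ischemia, a combination seen in 16.9% of all tested entries and in 9 of the 10 tested entries of miR-99, miR-100 and miR-125. None of the 3 tested miR-196 entries had it. Other miRNAs were unevenly spread over the same libraries. miR-122 of liver stood at 244466, 7342 and 11333 normalized counts after ischemia and at 113675, 14994 and 19444 before ischemia, highest in monkey 1 at both times. The summed skeletal muscle and heart miRNAs, all 5 of them above 0 in each library, were at 4109.5 to 21629 after ischemia and 3007 to 11938 before, lowest in monkey 2 at both times. The same held for miR-1, miR-133 and miR-206, the most abundant of them. Before ischemia, however, the rarer miR-499 (295 against 515) and miR-208 (3.90 against 6.05) were lower in monkey 1 than in monkey 2.

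The summed miRNAs of lining epithelium (miR-192, miR-194, miR-215, miR-200, miR-141 and miR-429, all above 0 in every library) were at 163475 to 1080559 normalized counts after ischemia and 9018 to 18594 before, and 11 of their 13 tested entries passed the adjusted threshold in limma, all 11 higher after ischemia. Leukocyte miRNAs (4 of 4 above 0 throughout) were at 364271 to 483394 after ischemia and 164790 to 258378 before, without overlap. Most of that sum was miR-142, at 246199 to 412265 after and 100864 to 154935 before, while miR-155 and miR-150 overlapped between the groups. The rarer miR-342 was also higher after ischemia without overlap, at 1989 to 7118 against 744 to 1405 before. Of the 10 tested leukocyte entries 1 passed as higher, and 1 as lower, mml-miR-142-3p_R-1 (−3.04 on the log2 scale, adjusted p = 0.00937 from limma), named after its values were seen. Those of red blood cells (4 of 4) were at 1581364 to 4639196 after and 709288 to 1774878 before. A measure of hemolysis, miR-451 over miR-23a on the log2 scale, was 2.19, −0.16 and 1.86 after ischemia and 0.33, 0.11 and 1.90 before. Platelet miRNAs (3 of 3) were at 495272 to 653245 after and 417138 to 809094 before, and those of the vessel wall (3 of 3) at 254098 to 279547 after and 216513 to 309676 before. Of the platelet miRNAs, miR-126 and miR-223 overlapped between the groups. The rarer miR-197 was higher after ischemia without overlap, at 4965 to 8837 against 1918 to 3422 before. Most of the vessel wall sum was miR-126, at 250434 to 273534 after and 205796 to 303012 before, which is also part of the platelet sum. In each monkey, miR-143 was lower and miR-145 higher after ischemia. Brain miRNAs (3 of 4 above 0 throughout, with miR-124 at 0 in 4 libraries) were at 10646 to 12849 after and 11974 to 22928 before. Most of the brain sum was miR-128, at 10267 to 12604 after and 11495 to 21938 before. The part of these cell types in the levels of miR-10 and miR-196 was not tested.

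**Figure D5:**
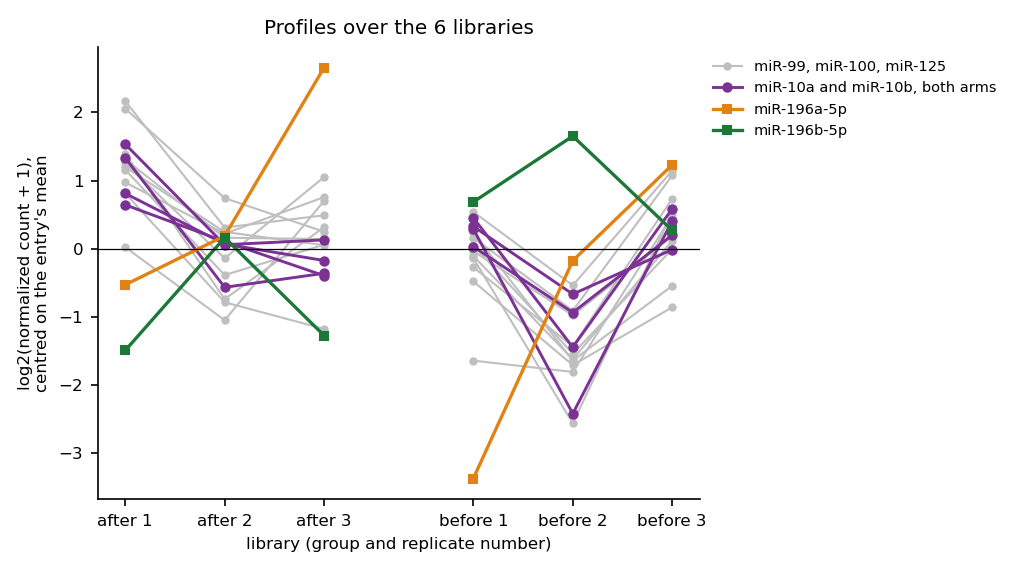
Log2(normalized count + 1) of each tested entry, centred on its own mean, over the 3 libraries after and the 3 before ischemia (x axis, group and replicate number), for the 4 miR-10 entries (purple), miR-196a-5p (orange), miR-196b-5p (green) and the 10 tested entries of miR-99, miR-100 and miR-125 (grey). The miR-10 lines peak at after 1 and dip at before 2, whereas miR-196b-5p is highest at before 2.

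miR-10a-5p and miR-10b-5p had similar mean levels, each the higher one in some libraries. The profile of miR-10a-5p over the 6 libraries was closest to that of its own 3p arm, at a root mean square difference of 0.22 on the log2 scale. miR-10b-5p lay at 0.56, with 16.3% of the 553 other tested entries of a rhesus or human name nearer, and miR-196b-5p at 1.35, with 78.3% nearer. Outside the family the nearest profiles were those of mml-miR-378a_R+1 (0.26), hsa-miR-4508_L+2R-1 (0.28) and mml-miR-1284_R+2 (0.29), over 6 libraries.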

How the data were processed

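Small RNA of plasma was sequenced in 3 libraries after and 3 before ischemia. The authors kept reads of 18 to 26 nt, removed Rfam ncRNA and identified miRNAs by comparison with precursors and genome (ACGT101-miR). The genome build is not given in the sources used here. The deposited values are a signal, the authors' normalized counts (counts times 1 factor per library). Counts were recovered as multiples of the smallest step of each library, 0.565 to 1.86 normalized counts, and 84.0 to 86.9% of values above 0 came out whole within 0.01. A count model was therefore not used, and limma replaced the count test planned for whole counts. 5 emptied lines are not reported here.

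Log2(normalized count + 1) was compared with limma 3.58.1 (R 4.3.3, variance trend, no covariate) over entries with at least 10 normalized counts in 3 libraries. P-values measure the spread between these libraries. The study used an unadjusted test per miRNA, kept as an alternative. Sums and ratios were tested by exact permutation in Python 3.11.15 (NumPy 2.4.6, SciPy 1.17.1, pandas 2.3.3), and figures drawn with Matplotlib 3.10.9. The fit was tested on simulated data. Every member was described, and the named non-members were the relatives, the marker lists and the 3 nearest profiles. Members, lists and tests were chosen with earlier results of these data known. Same-numbered libraries were taken as pairs because the study sampled 3 monkeys at both times and because deviations from the group means correlated at 0.18, 0.36 and 0.29 between them, and at −0.40 to 0.14 otherwise. No sample label says that a replicate number marks a monkey. The correlations come from the same tested entries and cannot establish the pairing. Alternatives were other scalings, filters, pseudocounts, tests, merged entries, pairing and left-out libraries.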

Additional observations from a re-analysis of the deposited data

How the results depend on the processing

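With 3 libraries per group, exact tests cannot go below 0.1, and paired sign-flip tests not below 0.25. The count of members lower after ischemia, 0 without a pairing term, was 1 with the replicate block (miR-196b-5p), and 1 (miR-196b-3p) by library totals, without a variance trend, with stem and arm summed, and in the study's kind of unadjusted test. miR-196b-3p had to differ to pass the filter, and without it the counts in those last settings, unlike that of the block, were 0. The count was 0 to 1 with each library left out, and 1, 1 and 0 with the block and replicate 1, 2 or 3 left out, where the count of members higher was 0, 1 and 0. That blocked setting was added after the values had been seen. Of all tested entries, 16 were higher and 28 lower; 46 were lower by library totals, 10 higher without a variance trend, and 30 higher and 57 lower in the unadjusted test. With each library left out, 5 to 15 were higher and 14 to 28 lower, and with the block and replicate 1, 2 or 3 left out 20, 24 and 2 were higher and 30, 25 and 0 lower.

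By library totals miR-10a-5p was at −0.15, miR-10b-5p at −0.12 and summed miR-10 at −0.13. Without replicate 1 after ischemia these were −0.03, −0.33 and −0.17, and without replicate 2 before ischemia −0.040, −0.38 and −0.18. With the block, miR-10b-5p was at −0.034 without replicate 1, and without replicate 2 miR-10a-5p was at −0.034 and miR-10b-5p at −0.034. With each library left out, miR-10a-5p ranged from −0.040 to 0.49, miR-10b-5p from −0.38 to 0.63, summed miR-10 ranged from −0.18 to 0.52, the share of miR-10 from −0.136 to 0.0133 percentage points (0.0182 without red blood cell miRNAs), and the ratio of miR-10a-5p to miR-10b-5p from −0.38 to 0.34. miR-196b-5p and miR-196a-5p kept their direction in every setting. miR-196b-3p was not tested with the filter at 50, nor with any 1 library before ischemia left out, nor in the blocked settings with a replicate left out. The block changed no other call of a member.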
